A study of Mus musculus with 8 samples.

Results

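Voltage-gated and potassium channels are the proteins that shape electrical activity, and 137 of their genes were read out from microarrays of mouse pancreatic islets. The members were taken by name, not by their values: every gene whose symbol, reached from a probe's RefSeq accession, starts with Kcn, Cacn or Scn and a digit, or with these letters, further letters and a digit, without Kcnj11 and without the Scnn1 genes. They were 137 of the 22911 genes with a probe, and 229 of the 56605 probes belonged to them. Each gene was represented by its brightest probe. By symbol the members were 40 pore-forming subunits of voltage-gated potassium (Kv) channels, 8 of calcium- and sodium-activated potassium channels, 14 of inward rectifier (Kir) channels, 14 of two-pore-domain (K2P) channels and 16 auxiliary subunits of potassium channels. The others were 10 pore-forming alpha-1 and 16 auxiliary subunits of calcium channels, 10 pore-forming alpha and 4 beta subunits of sodium channels, and 5 genes that share only the name. Of those 5, Kcnq1ot1, Kcnd3os, Kcnmb4os1 and Kcnmb4os2 are noncoding, and Scnm1 encodes a splicing factor.

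The islets came from control mice with floxed Fbln5 alleles and from βFbln5KO mice, in which Fbln5, the gene of the matrix protein fibulin-5, was deleted in beta cells by crossing the floxed line with mice whose Cre is driven by the mouse insulin 1 promoter. All mice were 11 weeks old, and the methods name male littermates. RNA was extracted 4 times per genotype, from 150 islets each time, without culture, and each extract was put on 1 one-colour array. The sources used here do not say whether any control carried Cre, nor how many mice gave the 150 islets, and p-values measure the spread between these extracts. Whole islets were measured, so other islet cells, in which Fbln5 was not deleted, contributed RNA, and fewer cells of a type and less RNA per cell cannot be told apart.

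A beta cell is electrically excitable. When glucose is metabolised, ATP-sensitive potassium channels close, the membrane depolarises, voltage-gated calcium channels open, and the calcium that enters triggers the release of insulin. Voltage-gated and calcium-activated potassium channels then repolarise the membrane and end the action potential, sodium channels can quicken its upstroke, and background potassium channels set the resting potential.

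Values below are log2 of the scanner software's processed signal minus the 75th percentile of the same array, and a positive log2 fold change means higher in βFbln5KO. A probe counts as detected on an array where the software marked its spots as well above background. The share of spots so marked was 56.6% to 58.8% on the control arrays and 52.6% to 56.6% on the βFbln5KO arrays. All 8 arrays lay on 1 slide, with the control arrays in one of its rows and the βFbln5KO arrays in the other, and an effect of the row cannot be told apart from that of the genotype. Fbln5 itself, on chromosome 12, gave −1.70, −1.32, −2.05 and −1.83 on control arrays 1 to 4 and −2.74, −2.40, −2.38 and −1.37 on βFbln5KO arrays 1 to 4. The array labelled βFbln5KO replicate 4 lay within the control range, and the log2 fold change was −0.50 (SE 0.29, adjusted p = 0.342 by limma). Slc38a1, an amino acid transporter gene on chromosome 15, read −3.70 to −2.56 on the control arrays and 2.40 to 2.51 on all 4 arrays labelled βFbln5KO, so by that gene replicate 4 lay with the arrays of its label. Where the Fbln5 probe lies relative to the deleted exons was not determined. Beta cell markers were detected on all 8 arrays for 8 of 8 genes, and their summed log2 level was 10.23 to 10.52 in control and 10.20 to 10.26 in βFbln5KO, with 0 of the 8 called.

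Detection came first, because it decides which channels the arrays can compare. The probe was well above background on all 8 arrays for 68 members (49.6%, against 59.6% of all genes), on 1 to 7 arrays for 31, and on no array for 38. Detection on every array was most frequent among the calcium- and sodium-activated potassium channels, at 6 of 8, and the sodium channel beta subunits, at 3 of 4. It was least frequent among the auxiliary subunits of calcium channels, at 5 of 16. Kv pore subunits were detected on every array in 21 of 40 cases, Kir in 6 of 14, K2P in 7 of 14, calcium channel alpha-1 subunits in 6 of 10 and sodium channel alpha subunits in 4 of 10. Among the 38 members that no array detected were Cacna1s and Cacna1f, the calcium channel subunits known from skeletal muscle and retina, and Scn7a, an atypical sodium channel.

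**Figure D1:**
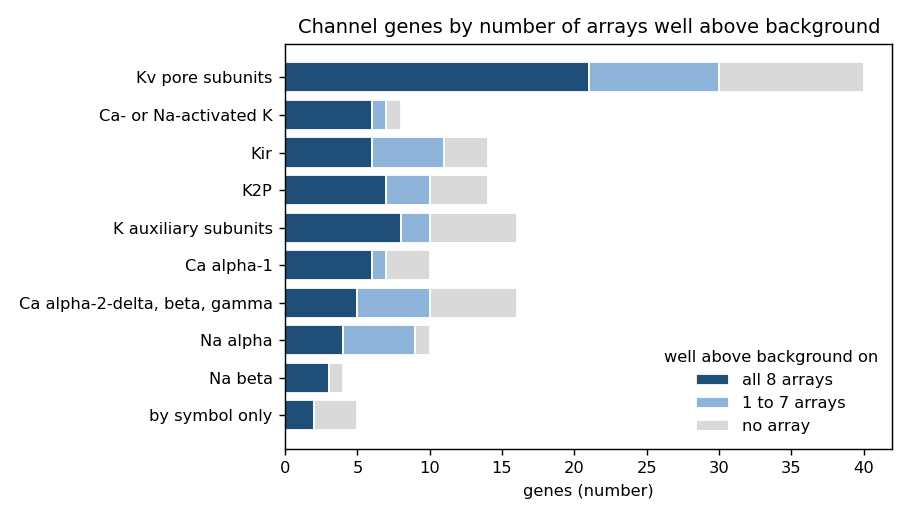
Number of channel genes (horizontal axis) in each class, divided by whether the gene's brightest probe was well above background on all 8 arrays (dark blue), on 1 to 7 arrays (light blue) or on none (grey). Kv pore subunits formed the largest class, with 21 of 40 genes detected on all 8 arrays, and 5 of the 16 auxiliary calcium channel subunits were.

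Of 28 channel genes listed for their known or proposed use in islet cells, 22 were detected on all 8 arrays. Kcnk2, a mechanically gated K2P channel, and Cacna1e, the R-type calcium channel, were detected on none, and no fold is given for them. Of the 22, 0 passed an unadjusted limma p of 0.05, and their median log2 fold change was −0.0026.

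Between the genotypes, the detected channels differed little. Of the 68 members detected on all 8 arrays, 1 was higher and 1 was lower in βFbln5KO at an unadjusted limma p under 0.05, which is 1.47% in each direction. Among all genes detected on all 8 arrays, 1.01% were higher and 3.08% were lower at that threshold. Over all 137 members, 0 passed a Benjamini-Hochberg adjusted p of 0.05, and the smallest adjusted p among the 68 was 0.148. Across all genes 0.0131% passed the adjusted threshold in this same fit. Without the array labelled βFbln5KO replicate 4, 20 members passed it, of which 18 were undetected on every array. The others were Kcnh4 and Scn2a. Without a variance trend 12 passed, all undetected on every array. The shares of all genes under these other settings are not given here, so 20 and 12 are not read as results about channels. The median log2 fold change of the 68 was −0.030, with the central 90 percent between −0.36 and 0.25, and that of all genes detected on all 8 arrays was −0.0082, between −0.28 and 0.19. The fold change was under 0.5 on the log2 scale in either direction for 66 of the 68, and none exceeded 2-fold.

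How firmly a small difference can be read depends on the spread between arrays. The median SE of the log2 fold change was 0.157 for the 68 members and 0.0902 for all genes detected on all 8 arrays. The 95% interval of the fold change lay wholly within 2-fold for 63 of the 68 (92.6%, against 95.8% of all such genes) and wholly within 1.5-fold for 46 (67.6%, against 85.4%). With 4 arrays against 4, an exact two-sided permutation test cannot go below p = 0.029. Only 1 of the 68 had groups that did not overlap, where 2.81% of all genes detected on all 8 arrays had none.

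**Figure D2:**
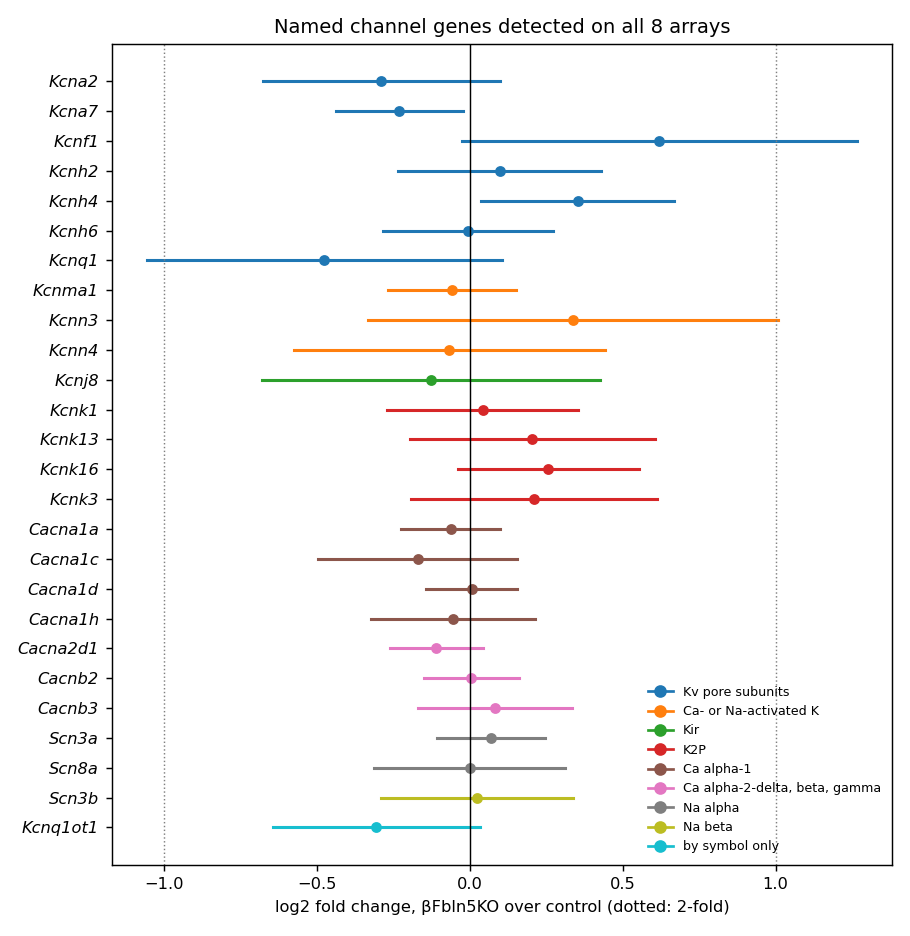
Log2 fold change of βFbln5KO over control (points) with the 95% interval of the limma fit (bars) for the named channel genes detected on all 8 arrays, coloured by class. The intervals of Kcnh4 and Kcna7 leave out 0, those of the other genes cross it, and the dotted lines mark 2-fold.

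The voltage-gated calcium channels carry the calcium current that starts insulin release. Cacna1d, an L-type pore subunit, gave 0.08, −0.09, −0.06 and 0.03 on control arrays 1 to 4 and −0.05, 0.05, 0.09 and −0.10 on βFbln5KO arrays 1 to 4. The groups overlapped, and with a log2 fold change of 0.0066 (SE 0.065) the 95% interval ran from 0.907 to 1.11 times the control signal. Cacna1c, the other L-type pore subunit of beta cells, gave 2.36, 2.42, 2.17 and 2.56 in control and 2.06, 2.51, 2.38 and 1.87 in βFbln5KO. Arrays 1 and 4 of βFbln5KO were lower than every control array and the other two were not, and the log2 fold change was −0.17 (SE 0.14, 95% interval 0.709 to 1.11 times control). A second detected probe gave −0.13 for Cacna1d and −0.14 for Cacna1c.

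Cacna1a, the P/Q-type pore subunit, gave 1.67, 1.82, 1.80 and 1.83 in control and 1.55, 1.84, 1.78 and 1.69 in βFbln5KO. Its groups overlapped (log2 fold change −0.062, 95% interval 0.856 to 1.07 times control), and 2 further detected probes gave −0.12 and −0.32. Cacna1h and Cacna1i are T-type pore subunits, which open near the resting potential. Cacna1h had a log2 fold change of −0.054 (SE 0.12). Cacna1i was dimmer, at −3.00, −3.02, −2.16 and −2.57 in control and −3.09, −3.14, −3.56 and −2.63 in βFbln5KO, and it did not pass the test (−0.42, SE 0.26, adjusted p = 0.390 by limma). In all, 6 alpha-1 genes were detected on all 8 arrays, 0 were called in either direction, and their log2 fold changes ran from −0.42 to 0.0066 with a median of −0.058.

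Among the auxiliary subunits of calcium channels, Cacna2d1, an alpha-2-delta subunit that brings the pore to the membrane, gave 3.16, 3.17, 3.27 and 3.21 in control and 2.94, 3.14, 3.23 and 3.07 in βFbln5KO. Array 3 of βFbln5KO lay among the controls and arrays 1, 2 and 4 lay below them, with a log2 fold change of −0.11 (SE 0.067, 95% interval 0.835 to 1.03 times control). Its 2 other probes detected on all 8 arrays gave 0.019 and −0.35 (SE 0.16), so the probes differed in sign and size. The beta subunits, which bind the pore inside the cell, had log2 fold changes of 0.0051 for Cacnb2 (95% interval 0.901 to 1.12 times control) and 0.083 for Cacnb3 (SE 0.11). Of the 5 auxiliary genes detected on all 8 arrays, 0 were called, and the median was −0.11. The lowest of them, Cacng7 at −0.57 (SE 0.63), rested on control array 1 alone, which read −0.96 while the other 7 arrays lay between −4.05 and −3.44.

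The Kv channels open on depolarisation and repolarise the cell. Kcnb2, a delayed rectifier pore subunit, was detected on 4 control and 3 βFbln5KO arrays, at −3.45, −3.47, −3.55 and −3.42 in control and −3.94, −3.81, −3.50 and −3.93 in βFbln5KO. Array 3 of βFbln5KO lay among the controls, the other 3 lay below them, and the difference did not pass the test (−0.32, SE 0.18, adjusted p = 0.328 by limma).

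Kcnh4, a pore subunit of the ether-à-go-go family, was the member higher in βFbln5KO. It gave 3.13, 3.12, 2.65 and 3.08 on control arrays 1 to 4 and 3.56, 3.45, 3.35 and 3.03 on βFbln5KO arrays 1 to 4. Arrays 1 to 3 of βFbln5KO lay above every control array, and the array labelled βFbln5KO replicate 4 lay below 3 of the 4. The log2 fold change was 0.35 (SE 0.14, p = 0.0318, adjusted p = 0.148 by limma; exact permutation p = 0.114), or 1.28-fold. The call was lost without control array 3, where the log2 fold change was 0.24, and without βFbln5KO array 1, 2 or 3, where it was 0.28, 0.32 and 0.35. Without βFbln5KO array 4 it was 0.46 with an adjusted p of 0.0380 by limma. It was lost too under quantile normalization, a common floor on dim signals, a variance without trend, the mean over its probes and the methods' t-test. A second detected probe of Kcnh4 had a log2 fold change of −0.018, so the difference was seen by 1 of the 2 probes, and both probes lie within the outer 16 of the array's 384 rows of spots.

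Kcna7, a Shaker-related pore subunit, was the member lower in βFbln5KO and the only one of the 68 whose groups did not overlap. It gave −1.04, −1.09, −0.76 and −1.06 in control and −1.23, −1.12, −1.27 and −1.25 in βFbln5KO. The gap between the groups, from −1.09 to −1.12, was narrow, and control array 3 was the highest of all. The log2 fold change was −0.23 (SE 0.091, p = 0.0334, adjusted p = 0.154 by limma; exact permutation p = 0.029), or 0.853 times control. The call was lost without control array 3, where the log2 fold change was −0.15. It was lost also without βFbln5KO array 1, 3 or 4, where the log2 fold change stayed at −0.23, −0.21 and −0.22 with fewer arrays in the test.

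Other Kv genes with small p did not pass the test in the fit described, and some passed the unadjusted threshold under other settings. For Kcna2, another Shaker-related subunit, the log2 fold change was −0.29 (SE 0.17, adjusted p = 0.362 by limma), and it was called lower with the common floor, with no trend and by the methods' t-test. Kcnf1, an electrically silent subunit that assembles with other Kv subunits and lies on chromosome 12 like Fbln5, gave −2.67, −3.56, −2.92 and −3.50 in control and −2.59, −3.01, −2.64 and −1.93 in βFbln5KO. Its highest value was on the array labelled βFbln5KO replicate 4, the ranges overlapped, and the log2 fold change was 0.62 (SE 0.28, adjusted p = 0.224 by limma). Kcnf1 was called higher with normexp (0.35), the filter on dim probes, the deposited table, without βFbln5KO array 2 (0.78) and without control array 1 (0.78).

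Kcnq1, a delayed rectifier subunit best known from heart and epithelia, had an outlier spot on control array 1, which left 3 control values, −1.38, −0.35 and −0.95, against −1.53, −1.57, −1.41 and −0.96 in βFbln5KO. The log2 fold change was −0.47 (SE 0.25, adjusted p = 0.307 by limma), and it was −0.20 without control array 3, the highest of the 3 control values kept. It was called lower without control array 2 (−0.72) and in the deposited table (−0.80), which keeps the outlier spot, and it was −0.81 with outlier spots kept and −0.11 as the mean over its probes. Its other probe detected on all 8 arrays gave −0.25. The summed log2 level of 10 acinar cell markers was 10.14, 9.90, 11.32 and 11.03 on the control arrays and 10.03, 9.21, 9.25 and 10.64 on the βFbln5KO arrays, with all 10 markers lower on average in βFbln5KO, 1 of them called, and 9 detected on all 8 arrays. Control array 3 was highest for the acinar markers and, among the 3 control values kept, for Kcnq1. The part of acinar RNA in the Kcnq1 difference was not tested. Kcnq1ot1, a noncoding RNA transcribed antisense within Kcnq1, gave 2.75, 2.22, 2.03 and 2.30 in control and 2.09, 2.03, 2.18 and 1.78 in βFbln5KO and did not pass the test either (−0.30, SE 0.15, adjusted p = 0.257 by limma).

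The ether-à-go-go related subunits Kcnh2, which encodes hERG, and Kcnh6 had log2 fold changes of 0.099 (SE 0.15) and −0.0053 (SE 0.12). Kcnh1 spanned 1.66 to 2.53 in control and 1.54 to 2.42 in βFbln5KO. Of the 21 Kv pore genes detected on all 8 arrays, 7 had a positive and 14 a negative log2 fold change, with a median of −0.057 and a range from −0.47 to 0.62. Kcns1 and Kcng2, which encode silent modifier subunits, were each detected on 3 control arrays and 0 βFbln5KO arrays. No fold is given for either gene. The lowest signal detected on an array was −5.01 to −4.79 on control arrays and −4.70 to −4.19 on βFbln5KO arrays, so a dim gene needed more signal to be detected in βFbln5KO.

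Calcium-activated potassium channels couple calcium to repolarisation. Kcnma1, the pore of the large-conductance channel, gave 1.96, 2.16, 1.99 and 2.24 in control and 1.87, 2.11, 2.20 and 1.94 in βFbln5KO. The groups overlapped (log2 fold change −0.057, 95% interval 0.832 to 1.11 times control), and all 5 of its probes were detected on all 8 arrays, with log2 fold changes from −0.27 to 0.092. Kcnn4, the intermediate-conductance channel, had a log2 fold change of −0.066 (SE 0.22). Kcnn3, a small-conductance channel, had 0.34 (SE 0.29), and its values were −1.07, −1.65, −0.10 and −1.46 in βFbln5KO against −1.48 to −1.32 in control, so arrays 1 and 3 stood above every control array and array 3 stood farthest. In this class 0 of 6 detected genes were called.

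The Kir channels pass current near the resting potential. Kcnj8, which can form ATP-sensitive channels in vessels and heart, had a log2 fold change of −0.13 (SE 0.24). Kcnj3, Kcnj5 and Kcnj6 encode channels opened by G proteins, through which hormones and transmitters quieten cells. Kcnj3 was detected on 3 control and 0 βFbln5KO arrays, too dim for a fold, Kcnj5 on 2 and 2, and Kcnj6 on 4 and 1, and on the 1 βFbln5KO array that detected it Kcnj6 read −1.22 where the other 7 arrays lay between −4.65 and −3.86. Of the 6 Kir genes detected on all 8 arrays 0 were called, and their log2 fold changes ran from −0.21 to 0.045.

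The K2P channels leak potassium at rest. Kcnk16, which encodes TALK-1 and is known for its abundance in beta cells, gave 0.32, −0.13, 0.10 and 0.44 in control and 0.57, 0.25, 0.57 and 0.37 in βFbln5KO. Arrays 1 and 3 of βFbln5KO lay above every control array, and the other two lay within the control range. The log2 fold change was 0.26 (SE 0.13, p = 0.0788 by limma; exact permutation p = 0.143), with a 95% interval from 0.975 to 1.47 times control. It passed the unadjusted threshold without control array 4 or without βFbln5KO array 2. Kcnk1, Kcnk3 and Kcnk13 had log2 fold changes of 0.042, 0.21 and 0.21, none past the test. In this class 6 of the 7 genes detected on all 8 arrays had a positive log2 fold change, with a median of 0.075 and a highest value of 0.26, and 0 were called. With the normexp background correction 6 of the 7 were again positive and the median was 0.024.

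Auxiliary subunits of potassium channels set gating and traffic. Of the 8 detected on all 8 arrays 0 were called, the median log2 fold change was −0.018, and the range was −0.22 to 0.092. Kcnip1, a calcium-binding partner of Kv channels, spanned 3.13 to 3.47 in control and 3.27 to 3.64 in βFbln5KO and held the highest of these values. Kcnip3, a related calcium-binding protein, held the lowest and spanned 0.68 to 1.60 in control and 0.53 to 1.54 in βFbln5KO.

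Sodium channels carry the fast inward current of action potentials, and 0 of their genes detected on all 8 arrays were called. Scn8a, a pore-forming subunit also used in neurons, gave 0.52, 0.57, 1.01 and 0.39 in control and 0.71, 0.48, 0.48 and 0.82 in βFbln5KO. The group means were 0.62 in both, the 95% interval ran from 0.806 to 1.24 times control, and 2 further detected probes gave −0.20 and −0.073. Scn3a, another pore subunit, had a log2 fold change of 0.071 (SE 0.078), with control values from −0.56 to −0.48 and βFbln5KO values from −0.62 to −0.31, and its second detected probe gave −0.13. The 4 alpha genes detected on all 8 arrays ran from −0.00 to 0.071. Scn3b, a beta subunit, which tunes the pore, had a log2 fold change of 0.025 (SE 0.14). Scn9a was at the edge of detection, on 4 control arrays and 1 βFbln5KO array, at −4.52 to −4.17 and −4.67 to −4.47. Scn2a, named after its values were seen, showed the same split of detection, at −4.68, −4.46, −4.52 and −4.38 in control and −6.24, −5.33, −5.32 and −4.34 in βFbln5KO, with its only detected βFbln5KO value on the array labelled replicate 4. No fold is given for either gene, since most βFbln5KO arrays did not detect them.

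**Figure D3:**
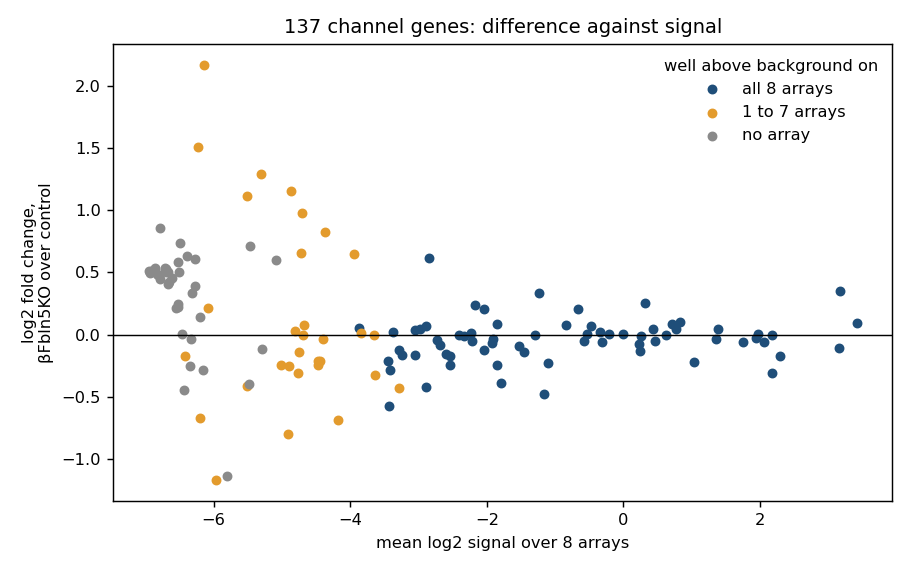
Log2 fold change of βFbln5KO over control (vertical axis) against the mean log2 signal over 8 arrays (horizontal axis) for the 137 channel genes, coloured by the number of arrays on which the probe was well above background. Genes detected on all 8 arrays lie close to 0, those detected on 1 to 7 arrays scatter widely, and those detected on none gather near 0.5.

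The members below detection are given as counts beside those of all undetected genes. Of the 38 members detected on no array, 20 had a higher and 1 a lower value in βFbln5KO at unadjusted p under 0.05, that is 52.6% higher, where 60.6% of all undetected genes were higher and 1.03% were lower. Their median log2 fold change was 0.483, close to the 0.477 of all undetected genes. The lowest signal of an array was −7.35 to −7.13 in control and −7.04 to −6.53 in βFbln5KO. Such values hold only a bound and are read as no fold for any of these 38. The 1 lower gene was Cacng6, an auxiliary calcium channel subunit named after its values were seen. Among the 31 members detected on 1 to 7 arrays 0 were called higher and 0 lower, where 6.9% and 3.83% of such genes were.

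A further group of members stood out on 1 array each. In 11 of the 137 (8.03%, against 5.35% of all genes) the brightest array exceeded the next by over 2 log2 units, and 8 of these 11 arrays were βFbln5KO arrays, as were 68% over all genes. Cacng5 and Kcnk9 read −1.40 and −2.38 on βFbln5KO array 2, Kcnk15 and Kcnq5 read −0.80 and −2.35 on array 1, and Kcna4 read −2.57 on array 3. For Cacng5 the value of βFbln5KO array 1 was left out as an outlier, although that array detected the gene too. Scn11a and Kcnj6 stood out on the array labelled βFbln5KO replicate 4, at −2.11 and −1.22. In control the arrays were number 3 for Kcnj15 at −2.96, number 2 for Kcnj9 at −3.48 and number 1 for Cacng7. Kcnk9, Kcnq5 and Kcna4 were undetected on all control arrays and detected on 1 βFbln5KO array each. Cacng5 was undetected on all control arrays and detected on 2 βFbln5KO arrays. No fold is given for any of them.

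**Figure D4:**
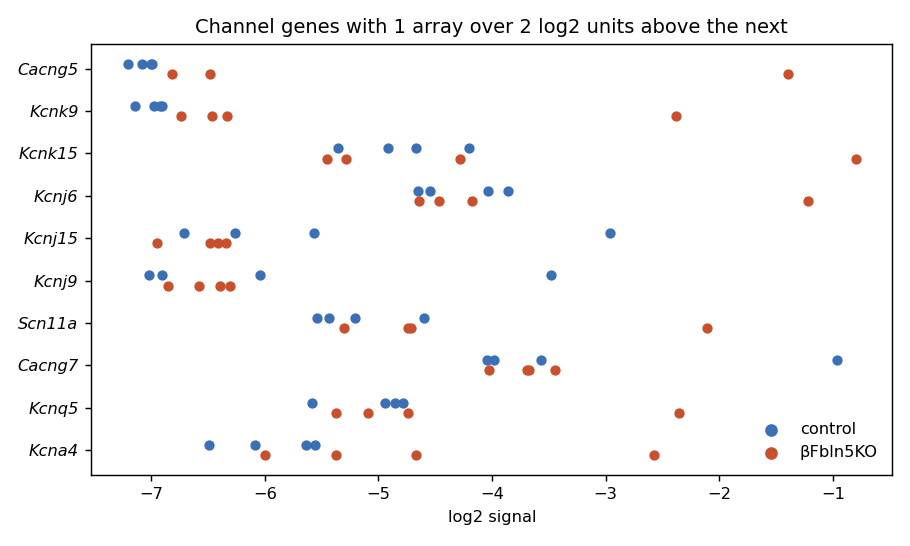
Log2 signal (horizontal axis) on each of the 4 control (blue) and 4 βFbln5KO (red) arrays for 10 of the 11 channel genes whose brightest array exceeded the next by over 2 log2 units. In each row 1 point stands apart, on a βFbln5KO array in 7 rows and on a control array in 3.

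Probes of 1 gene gave a further reading of the error. Of the 137 members, 57 had more than 1 probe, and 21 had more than 1 detected on all 8 arrays. In 14 of these 21 all such probes had the same sign of the log2 fold change, the median range between them was 0.148, and the largest was 0.371. Over all 99 member probes detected on all 8 arrays, 1 was higher and 1 was lower at unadjusted p under 0.05.

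Channel function also rests on genes outside the 3 symbol families, and 40 other genes of excitability and calcium handling were read alongside. Of these, 35 were detected on all 8 arrays, 1 was called higher and 1 lower, and the median log2 fold change was −0.053. Gem, a GTPase known to inhibit calcium channels, was higher by 0.56 (SE 0.23, adjusted p = 0.166 by limma), with −1.56, −1.65, −1.17 and −0.97 in control and −1.09, −1.11, −0.18 and −0.72 in βFbln5KO. Nalcn, a sodium leak channel, was the lower gene at −0.52 on the log2 scale (SE 0.22, adjusted p = 0.174 by limma), with −0.39, −0.86, −0.21 and −0.31 in control and −1.14, −0.55, −0.70 and −1.46 in βFbln5KO. In both genes the groups overlapped. Kcnj11 and Abcc8, the pore and the regulatory subunit of the ATP-sensitive potassium channel, each had a log2 fold change of −0.13 (adjusted p = 0.304 and 0.371 by limma), and for Abcc8 all 4 βFbln5KO arrays, at 7.09 to 7.23, lay below the controls, at 7.27 to 7.34 (exact permutation p = 0.029).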

How the data were processed

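Total RNA of islets, labelled with Cy3, was hybridised to Agilent mouse 8x60K arrays. The authors deposited Feature Extraction 11.0.1.1 output with a processed signal, an intensity after background subtraction that is not normalized between arrays, and other columns with flags for spots that are outliers or well above background. They also deposited values of 35553 probes that are a ratio of the processed signal to 1 number per array (within 0.01% for 100% of values). The paper's methods name GeneSpring for per-chip normalization.

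Here log2 processed signals were shifted by each array's 75th percentile (709 to 1055), outlier values (0.356%) were left out, and replicate spots were averaged. No spot was saturated. RefSeq accessions named 32994 of 56605 probes (58.3%). Gene symbols follow a RefSeq table of GRCm38.p6, and the array design names mm9, so no coordinates are given. All probes were fitted with limma 3.58.1 (eBayes with trend, Benjamini-Hochberg) in R 4.3.3, with the data.table package (1.17.8), and single values by exact permutation. Tables and figures were made with pandas 2.3.3, numpy 2.4.6 and matplotlib 3.10.9. The number of arrays sets the precision. The labels call the samples biological replicates.

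Named genes were an islet channel list of 28, the 5 higher and 5 lower members with the smallest limma p among those detected on all 8 arrays, members past the adjusted threshold, and members detected on at least 3 arrays of one group and 0 of the other; others are named as extremes of their class. The 4 members left out by name are in the counts only and are not reported here. Members and lists were chosen with earlier results of these data known. Markers were read from 10 lists. Beside the beta and acinar lists in the report, the alpha list had 1 of 7 genes lower, and the delta, PP, ductal, endothelial, macrophage, mesenchymal and Schwann cell lists had 0 called. Alternatives were normexp (offset 50), quantile normalization, the percentile over detected probes, a filter on at least 4 arrays, a common floor, eBayes without trend, outlier spots kept, other probe choices, the methods' t-test, the authors' deposited values, a block for the replicate number, the outer 16 spot rows at either edge left out, and each array left out.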

Additional observations from a re-analysis of the deposited data

Results flagged for a closer look

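In 6 of 86 groups of 4 arrays tested, 1 value stood apart from the other 3 by its gap. Chance flags about 1 in 20 groups that were not chosen by their values. Of the genes flagged here, Cacng7 and Kcnk9 were on the list of genes with 1 bright array. Kcnh4 and Kcna7 had been named for a small p. The 6 are therefore not judged against that rate. The values were −0.961 for Cacng7 on control array 1, −0.758 for Kcna7 on control array 3, 2.653 for Kcnh4 on control array 3, −5.563 for Kcnj3 on control array 4, −1.216 for Kcnj6 on the array labelled βFbln5KO replicate 4, and −2.382 for Kcnk9 on βFbln5KO array 2. For Kcnh4 and Kcna7, the 2 called members detected on all 8 arrays, the value apart was control array 3, which was also the highest for acinar markers, and without that array both calls were lost, at log2 fold changes of 0.24 and −0.15; the part of acinar RNA in them was not tested.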

How the results depend on the processing

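Of the members detected on all 8 arrays, 1 was called higher. The count was 2 with normexp, with the filter on dim probes, in the deposited table and with the replicate block (Kcnh4 and Kcnk16), and 0 with quantile normalization, the common floor, no trend, the mean over probes, the methods' t-test and the outer rows left out; leaving out each array gave 0 to 2. The count called lower, 1, was 2 with quantile normalization, the filter and the outer rows left out, and 3 with the common floor, no trend, the t-test and the deposited table, with 0 to 3 without each array. The deposited table and the setting without outer rows each held 62 of the 68 members. Over all members the 21 higher became 2 in the deposited table and with the filter, normexp or quantile normalization and 0 with the common floor, and stayed between 17 and 22 without each array. The 2 lower became 4 with quantile normalization and the common floor and 5 with no trend and the t-test, with 2 to 5 without each array. The adjusted calls, 0, became 12 without trend, all undetected on every array. Without βFbln5KO array 4 they became 20, of which 18 were undetected on every array. The others were Kcnh4 and Scn2a, and Scn2a was undetected on the remaining βFbln5KO arrays. The range over the arrays left out was 0 to 20. Shares of all genes under these settings are not given here, so these counts are not read as results about channels. Among values past the threshold, those of Cacna1e and Kcnk2 turned sign, to −0.1989 and −0.2705 with normexp; both genes were undetected on every array, so these fitted values are no folds. The cause of these changes was not tested. The median of −0.030 kept its sign, from −0.059 to −0.0049 without each array. Kcna7 lost its call under the replicate block, and the mean over probes of Kcnh4 gave 0.17. Over 21 alternatives, 785 values of 38 named members included 59 of the other sign and 49 that changed a call, in 13 members. The replicate numbers equal the array's place in its slide row and did not pair the samples: deviations correlated by 0.049, 0.0852, −0.052 and −0.0308 for numbers 1 to 4. Signal limits the 69 members not detected on every array.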
